A study of Mus musculus with 6 samples.

Results

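Asic5 and its relatives Asic1, Asic2, Asic3 and Asic4, the acid-sensing ion channel family, were examined in mouse liver after the active form of CREB-H was supplied. All 5 genes were measured, each by 1 probe set, among the 22180 genes with a single symbol and the 41345 probe sets of the array. Asic5 was selected on its own fall in the comparison described here, so its difference is given as a description and no test is read from it. The other 4 genes were taken as members of its family and not for their values.

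Acid-sensing ion channels are sodium channels of the degenerin and epithelial sodium channel superfamily, and a working channel is built from several subunits. Most members open when the fluid outside the cell becomes acid and are best known from neurons. Asic5 differs from them: it was first described as a sodium channel of brain, liver and intestine, and the rat protein is opened by bile acids rather than by acid, for which it is also called the bile acid-sensitive ion channel. In rat liver it has been placed in the cells that line the bile ducts.

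The mice were CREB-H knockouts (allele Creb3l3tm1.1Sad/J) of 8 weeks of age, on a normal diet. The AAV-CREB-H-ΔTC group received, by intraperitoneal injection, a liver-targeting adeno-associated virus (AAV) that carries the active form of CREB-H, a transcription factor of the endoplasmic reticulum membrane encoded by Creb3l3. The AAV-GFP group, also CREB-H knockouts, received the same kind of virus with green fluorescent protein. There were 3 mice in each group, given as biological replicates in the labels, whose livers were collected 2 weeks later. Total RNA of each whole liver went on 1 array, so fewer cells of a type and less RNA per cell cannot be told apart, and the labels do not say whether littermates were used.

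Signals are on a log2 scale, with array medians between 4.98 and 5.01. The precision is limited by the small number of arrays. Creb3l3 itself averaged 7.19 ± 0.43 in AAV-CREB-H-ΔTC livers and 6.30 ± 0.32 in AAV-GFP livers (SD, n = 3 each), without overlap, a log2 difference of 0.89 (SE 0.25) that did not pass the limma test (adjusted p = 0.647). Its mean in AAV-GFP livers was above the 95th percentile of olfactory receptor probe sets, 4.98 to 5.03 in that group, and the part of the transcript that its probes read was not used here. The mean of Kdm5d, Eif2s3y and Uty, all Y-linked, stood at 7.67 in AAV-CREB-H-ΔTC replicate 3 and 7.83 in AAV-GFP replicate 3, against 3.15 to 3.39 on the other 4 arrays. Values without these 2 arrays are given for the members and beside some of the other genes and lists. The hepatocyte markers Alb, Ttr and Cps1 read above 13 on all arrays, and the mean signal of 10 hepatocyte markers was 12.61 to 12.74 in AAV-CREB-H-ΔTC livers and 12.62 to 12.75 in AAV-GFP livers, which fits the labelled tissue.

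Asic5 (probe set 17398441, Entrez 58170, chromosome 3 in GRCm38.p6) was lower when active CREB-H was supplied. Its log2 signals were 8.37, 8.45 and 8.37 in the 3 AAV-CREB-H-ΔTC livers, against 10.11, 10.25 and 10.42 in the 3 AAV-GFP livers. Every AAV-CREB-H-ΔTC liver was below every AAV-GFP liver, and the closest livers of the 2 groups stood 1.66 apart. The group means were 8.40 ± 0.05 and 10.26 ± 0.15 (SD, n = 3 each), a log2 difference of -1.86 (SE 0.11) or a 3.64-fold lower signal. The 95% interval of the ratio ran from 0.228 to 0.332. It takes no account of the selection of Asic5 on this difference. Without the 2 arrays with Y-linked signal the difference was -1.77, and between those 2 arrays it was -2.05.

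Asic5 combined a large fall with replicates that lay close together. Its pooled SD within the groups was 0.112, against a median of 0.178 over all probe sets, and 22% of probe sets had a smaller one. Only 5 probe sets, Asic5 included, differed by -1.86 or less, and 3 of these carry a single gene symbol. The groups did not overlap in 3 of the 5, which were Asic5 and those without a single symbol. The others with a symbol were Hsd3b5, a liver steroid dehydrogenase, and Elovl3, a fatty acid elongase. Both varied widely among mice of the same treatment, with the highest value of each group on its array with Y-linked signal. Hsd3b5 averaged 3.78 ± 1.91 in AAV-CREB-H-ΔTC livers and 5.73 ± 3.72 in AAV-GFP livers (SD, n = 3 each), and its groups overlapped. Elovl3 averaged 8.26 ± 2.32 in AAV-CREB-H-ΔTC livers and 10.14 ± 1.83 in AAV-GFP livers, and its groups overlapped as well. Within the 4 arrays without Y-linked signal neither gene overlapped. There Elovl3 read 6.737 and 7.11 in AAV-CREB-H-ΔTC livers against 9.556 and 8.675 in AAV-GFP livers. Hsd3b5 read 2.851 and 2.515 against 4.394 and 2.862. On the arrays with Y-linked signal Elovl3 read 10.93 against 12.19 and Hsd3b5 5.97 against 9.94. No probe set other than that of Asic5 was lower with a gap of 1.66 or more between the groups. Counting both directions, 6 probe sets had such a gap.

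**Figure D1:**
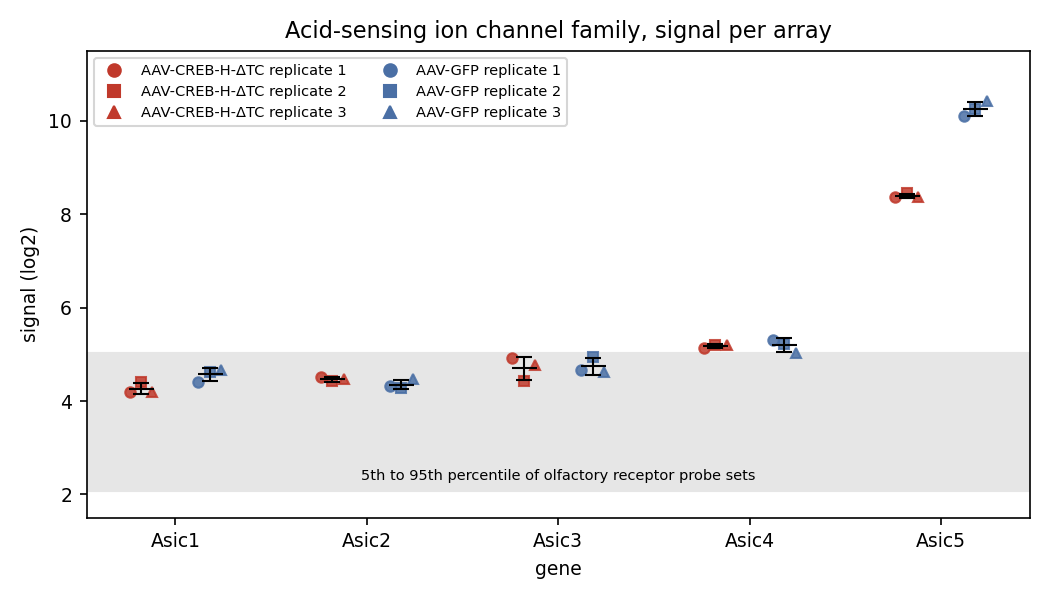
Signal (log2) of the 5 acid-sensing ion channel genes on each array, with AAV-CREB-H-ΔTC livers in red left of AAV-GFP livers in blue; symbols mark the replicate, and black bars the mean and SD of 3 livers. The grey band runs from the lowest 5th to the highest 95th percentile of olfactory receptor probe sets, 2.07 to 5.03; Asic5 stands well above it in both groups, and Asic1, Asic2 and Asic3 lie within it.

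The sequence before the start site of Asic5 is shown because the supplied protein is a DNA-binding factor. CREB-H belongs to the family of factors that bind the cAMP response element and related elements of the unfolded protein response. The RefSeq windows cover 250 bases before and 50 after an annotated start and matched Asic1, Asic2 (with 2 windows), Asic3 and Asic5. The Asic5 window lies at chr3:81996672-81996971 and that of Asic1 at chr15:99691974-99692273, both on the plus strand of GRCm38.p6. They are printed 5′ to 3′. Capitals mark TATAAA on either strand, with its overlapping copies, in Asic5, and the shorter core TGACG on either strand in Asic1.

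Asic5: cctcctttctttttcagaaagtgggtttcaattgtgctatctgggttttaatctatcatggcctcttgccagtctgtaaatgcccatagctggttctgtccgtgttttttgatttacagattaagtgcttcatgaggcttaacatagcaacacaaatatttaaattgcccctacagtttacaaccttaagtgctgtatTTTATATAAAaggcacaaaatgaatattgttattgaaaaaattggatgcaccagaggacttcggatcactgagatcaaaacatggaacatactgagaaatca
Asic1: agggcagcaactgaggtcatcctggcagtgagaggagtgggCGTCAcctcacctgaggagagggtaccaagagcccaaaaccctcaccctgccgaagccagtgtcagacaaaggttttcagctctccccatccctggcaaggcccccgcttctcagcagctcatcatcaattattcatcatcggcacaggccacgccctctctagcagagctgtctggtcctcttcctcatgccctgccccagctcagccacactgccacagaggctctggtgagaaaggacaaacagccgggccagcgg

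The Asic5 window held none of the letters of the full cAMP response element TGACGTCA, its shorter core TGACG, the unfolded protein response element core TGACGTG, or CCACG, a part of the endoplasmic reticulum stress element, on either strand. Among all 32851 windows, 1.79% held TGACGTCA, 20.8% TGACG, 2.01% TGACGTG and 32.8% CCACG, with TGACG counted also within the longer motifs. The letters say nothing about binding, and other starts and distant elements were not searched. The Asic5 window held TATAAA on both strands, as 2 overlapping copies that begin 52 and 48 bases before the start. Of all windows 13.6% held it on either strand. The Asic5 window was also poor in G and C, at 36.3% against a median of 52.7%, and 4.98% of windows had less. Of the other members, the Asic1 window held TGACG once, 209 bases before the start, and CCACG once. The Asic3 window held CCACG once, and 1 of the 2 windows of Asic2 held TATAAA, after its start.

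None of the other members passed the limma test. Asic1, a main subunit of the acid-gated channels of brain neurons (probe set 17314855, chromosome 15), read 4.19, 4.41 and 4.20 in AAV-CREB-H-ΔTC livers and 4.42, 4.62 and 4.67 in AAV-GFP livers. The groups did not overlap, but only 0.01 separated the nearest livers. The log2 difference was -0.31 (SE 0.12, 95% interval -0.59 to -0.02), and it did not pass the limma test after Benjamini-Hochberg adjustment over all probe sets (adjusted p = 0.714). Without the 2 arrays with Y-linked signal it was -0.22.

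Asic2, which joins other subunits in mixed neuronal channels (probe set 17266732, chromosome 11), read 4.51, 4.42 and 4.46 in AAV-CREB-H-ΔTC livers and 4.32, 4.27 and 4.46 in AAV-GFP livers. It was the 1 member with a higher mean, and its groups overlapped. Its log2 difference was 0.11 (SE 0.10, 95% interval -0.13 to 0.36, limma adjusted p = 0.885). Asic3, known from sensory neurons of pain pathways (probe set 17435335, chromosome 5), read 4.91, 4.44 and 4.77 in AAV-CREB-H-ΔTC livers and 4.67, 4.95 and 4.62 in AAV-GFP livers. The livers of both groups were intermixed, and the log2 difference was -0.04 (SE 0.16, 95% interval -0.42 to 0.34, limma adjusted p = 0.979). Asic4, which is not known to form an acid-gated channel on its own (probe set 17214564, chromosome 1), read 5.13, 5.20 and 5.20 in AAV-CREB-H-ΔTC livers and 5.32, 5.23 and 5.03 in AAV-GFP livers. The groups overlapped, with a log2 difference of -0.02 (SE 0.11, 95% interval -0.29 to 0.25, limma adjusted p = 0.988). Without the arrays with Y-linked signal the differences were 0.17 for Asic2, -0.14 for Asic3 and -0.11 for Asic4. The signs of Asic3 and Asic4 turned when single arrays were left out (0.09 for Asic3 without AAV-CREB-H-ΔTC replicate 2 and 0.04 for Asic4 without AAV-GFP replicate 1).

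Of the 5 members 1 passed the limma test, the one selected on that contrast, against 0.00484% of all probe sets, so nothing is read from the count. That call was lost with the replicate block, with a term for Y-linked signal, without the arrays that carry it, and in each fit with 1 array left out. The groups did not overlap, with AAV-CREB-H-ΔTC lower, in 2 of 5 members, Asic5 and Asic1, against 7.1% of all probe sets. Asic5 was selected on this difference, so nothing is read from that count either. No member was higher without overlap, against 5.23% of all probe sets. The median log2 difference of the family was -0.04, beside -0.015 over all probe sets. Without the arrays with Y-linked signal the family's median was -0.14, with 1 member higher and 4 lower. The lower bounds of the 95% intervals of Asic1, Asic2, Asic3 and Asic4 were -0.59, -0.13, -0.42 and -0.29. These bounds are not read against the -1.86 of Asic5, which was selected for its size. A fall at signals as low as those of the other members could also be understated.

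How much of the signal of Asic1, Asic2, Asic3 and Asic4 was above background could not be read from detection calls, which were not used here. As a dim range, the 1108 probe sets of olfactory receptor genes, whose known site is the nose, had medians of 2.94 to 2.97 in AAV-CREB-H-ΔTC livers and 2.99 to 3.04 in AAV-GFP livers. Their 95th percentile was 4.99 to 5.02 in AAV-CREB-H-ΔTC livers and 4.98 to 5.03 in AAV-GFP livers. Asic1, Asic2 and Asic3 lay below it on every array, and Asic4 lay beside it, above 95% to 96.6% of these probe sets. A true change of a gene at such signals can be understated. Asic5 lay above all 1108 in both groups, also after its fall. As values for nerve RNA, the mean signal of 8 neuronal markers was 4.62 to 4.69 in AAV-CREB-H-ΔTC livers and 4.56 to 4.66 in AAV-GFP livers, with 0 of 8 called. Single markers differed widely in signal, with means from 3.05 to 7.25 in AAV-CREB-H-ΔTC livers, so the list mean describes none of them well.

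**Figure D2:**
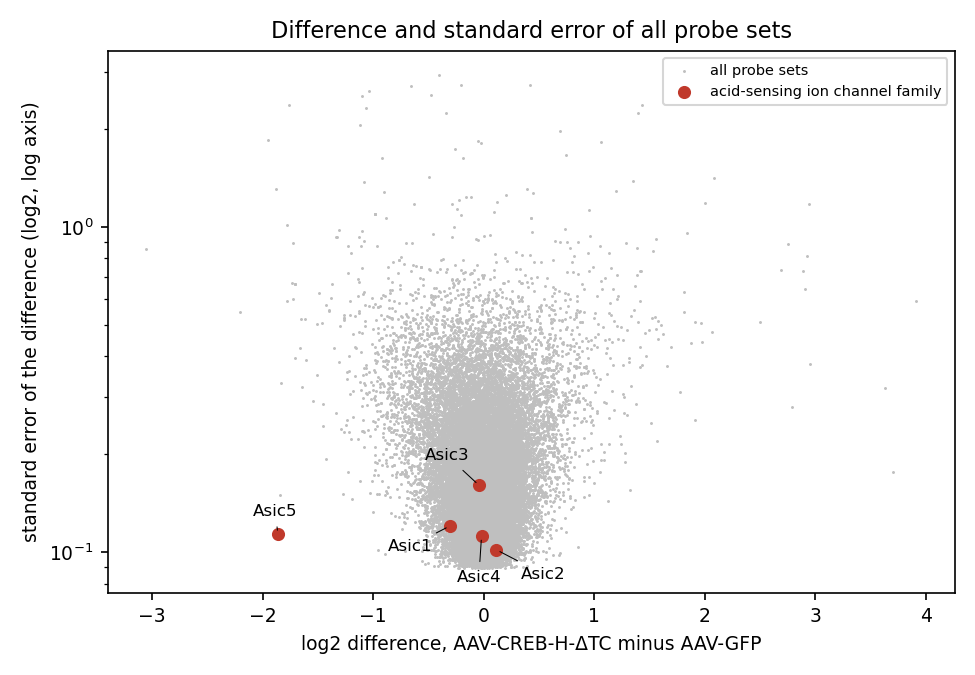
Log2 difference (AAV-CREB-H-ΔTC minus AAV-GFP, x axis) against its standard error (y axis, log scale) for all 41345 probe sets in grey and the 5 family members in red. Asic5 lies at -1.86 with a standard error of 0.11, while Asic1, Asic2, Asic3 and Asic4 lie between -0.31 and 0.11 within the bulk of the probe sets.

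None of the measured genes beside Asic5 on chromosome 3 passed the limma test. Of the 5 nearest RefSeq records on either side 5 were measured. Tdo2, the tryptophan dioxygenase of hepatocytes and the nearest record on one side, read 12.63, 12.80 and 12.74 in AAV-CREB-H-ΔTC livers and 12.99, 12.88 and 12.93 in AAV-GFP livers. These groups did not overlap, but the log2 difference was -0.21 (SE 0.10, limma adjusted p = 0.768). Ctso, the lysosomal protease cathepsin O and the next record beyond Tdo2, stood on the other side of zero at 0.27 (SE 0.13, limma adjusted p = 0.78), also without overlap. Its difference was 0.38 without AAV-GFP replicate 1 and as low as 0.16 without another array. On the far side, Gucy1b1 and Gucy1a1, the subunits of the nitric oxide receptor guanylate cyclase, differed by 0.05 (SE 0.18) and 0.01 (SE 0.29), with overlap in both. The noncoding record A830029E22Rik, beyond Ctso, differed by -0.09 (SE 0.11). Among the measured nearest records of the other members, Spaca3 beside Asic2 differed by 0.10 (SE 0.13), Slc4a2 beside Asic3 by -0.16 (SE 0.13) and Gmppa beside Asic4 by 0.19 (SE 0.30). The RefSeq record of Cdk5, a kinase of neurons, overlaps that of Asic3 and differed by 0.10 (SE 0.12). The positions of the probes were not used here, and signal of overlapping records may not be separate.

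**Figure D3:**
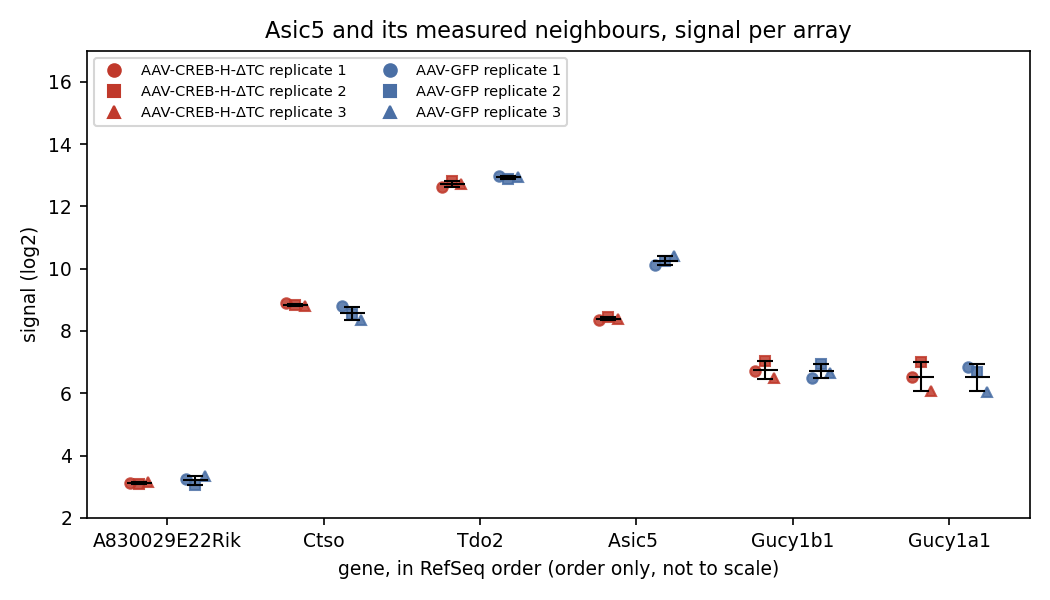
Signal (log2) per array of Asic5 and its 5 measured neighbours in RefSeq order, AAV-CREB-H-ΔTC livers in red left of AAV-GFP livers in blue, with mean and SD of 3 livers in black. Asic5 shows a difference of -1.86, while Tdo2 and Ctso, on one side of it, differ by -0.21 and 0.27.

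The nearest relatives of the family are the subunits of the epithelial sodium channel (ENaC), which takes up sodium in kidney, lung and colon. Scnn1a, its alpha subunit, read 7.33, 7.80 and 7.10 in AAV-CREB-H-ΔTC livers and 7.82, 7.92 and 8.12 in AAV-GFP livers. The AAV-CREB-H-ΔTC livers were all below the AAV-GFP livers, by 0.01 at the nearest. Its log2 difference of -0.54 (SE 0.19) did not pass (limma adjusted p = 0.693), and it was -0.30 without the arrays with Y-linked signal. Scnn1b and Scnn1g, the beta and gamma subunits, differed by 0.08 (SE 0.10) and -0.17 (SE 0.21), with overlap in both. None of the 3 subunits was called, and their median difference was -0.17, or -0.30 without the arrays with Y-linked signal.

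Proteins that bind acid-sensing channels or help carry them to the cell surface did not pass as single genes. Of the 11 partners listed and measured, 8 were higher and 3 lower, with a median difference of 0.08 and 0 called. Without the arrays with Y-linked signal 7 were higher and 4 lower, with a median of 0.19. Anxa2, a membrane-binding annexin, read 5.87, 6.07 and 6.70 in AAV-CREB-H-ΔTC livers and 5.04, 5.61 and 5.06 in AAV-GFP livers. The groups did not overlap, and the difference was 0.98 (SE 0.25, limma adjusted p = 0.626), or 0.65 without the arrays with Y-linked signal. S100a10, which pairs with Anxa2 and brings Asic1 to the surface, differed by 0.08 (SE 0.37), and by -0.38 without AAV-CREB-H-ΔTC replicate 3 or -0.37 without both arrays with Y-linked signal. Stoml3, a stomatin-like protein that modulates acid-sensing channels in sensory neurons, differed by 0.20 (SE 0.12), and by 0.10 without AAV-CREB-H-ΔTC replicate 1. Lin7b, a scaffold protein, differed by -0.13 (SE 0.10). Of 12 regulators of ENaC 9 were higher and 3 lower, with a median of 0.16 and 0 called. Furin, a protease that activates ENaC by cleavage, read 10.02, 9.90 and 10.10 in AAV-CREB-H-ΔTC livers and 9.59, 9.62 and 9.62 in AAV-GFP livers. It did not overlap between the groups and differed by 0.40 (SE 0.10, limma adjusted p = 0.623). The kinase gene Sgk1, which keeps ENaC at the surface, differed by 1.08 (SE 0.49, limma adjusted p = 0.753). That value rested in part on AAV-CREB-H-ΔTC replicate 3, at 9.51 against 7.70 and 7.80 in its group, and was 0.49 without it and 0.31 without both arrays with Y-linked signal. Prss8, a further protease of ENaC, differed by 0.32 (SE 0.23), and by 0.59 without AAV-GFP replicate 3 or 0.56 without both arrays with Y-linked signal.

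Other sensors of acid and of bile acids gave no call either. Of 10 measured acid sensors outside the family 7 were higher and 3 lower, with a median of 0.06. Kcnk5, a potassium channel sensitive to outside pH, differed by 0.54 (SE 0.20, limma adjusted p = 0.693), with overlap, and by 0.31 without the arrays with Y-linked signal. Pacc1, the acid-activated chloride channel, differed by -0.21 (SE 0.14), and by -0.08 without AAV-CREB-H-ΔTC replicate 3 or -0.09 without both arrays with Y-linked signal. The receptor Gpr4, which responds to protons, differed by 0.10 (SE 0.10). Of 9 genes for sensors of bile acids 3 were higher and 6 lower, with a median of -0.04 and 0 called. Nr1h4, the nuclear bile acid receptor, read 10.49, 10.48 and 10.21 in AAV-CREB-H-ΔTC livers and 10.51, 10.63 and 10.89 in AAV-GFP livers. Its groups did not overlap, and its difference of -0.28 (SE 0.14, limma adjusted p = 0.786) was -0.08 without the arrays with Y-linked signal. Nr1i3, a nuclear receptor of foreign compounds and bile acids, differed by -0.55 (SE 0.27, limma adjusted p = 0.778), and by -0.10 without those arrays. Gpbar1, the bile acid receptor of the cell membrane, differed by -0.09 (SE 0.15), and by -0.23 both without AAV-CREB-H-ΔTC replicate 3 and without both arrays with Y-linked signal. Of 8 measured genes of acid, base and sodium transport, 2 were higher and 6 lower, with a median of -0.10 and 0 called. Without the arrays with Y-linked signal 4 were higher and 4 lower, with a median of 0.004. The lowest unadjusted p was that of Slc4a4, a cotransporter of sodium and bicarbonate, at -0.44 (SE 0.14, limma adjusted p = 0.662), without overlap.

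**Figure D4:**
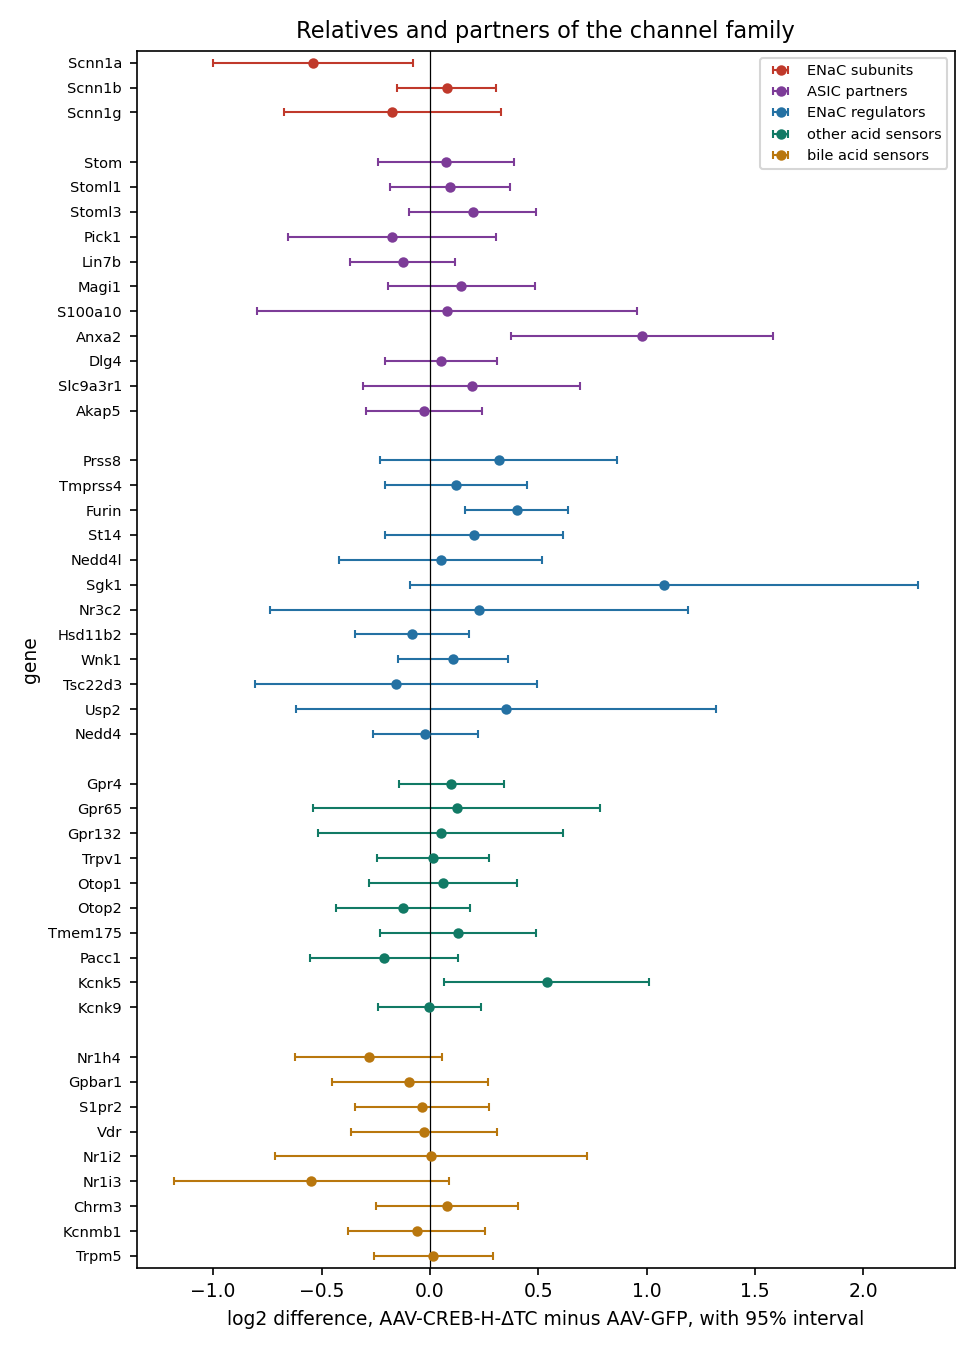
Log2 difference (AAV-CREB-H-ΔTC minus AAV-GFP) with its 95% interval for the 45 measured genes of 5 lists: ENaC subunits, partners of acid-sensing channels, regulators of ENaC, other acid sensors and bile acid sensors. The values run from -0.55 for Nr1i3 to 1.08 for Sgk1, and no gene passed the adjusted test.

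Lists of cell type markers are given as a description. Asic5 was selected for the size of its fall, so their medians are not read against it. Of 9 measured markers of bile duct cells 6 were higher and 3 lower, with a median difference of 0.15 and 0 called. Without the arrays with Y-linked signal 5 were higher and 4 lower, with a median of 0.02, and without AAV-GFP replicate 3 the median was 0.06. Their mean signal was 5.37 to 5.53 in AAV-CREB-H-ΔTC livers and 5.23 to 5.53 in AAV-GFP livers, so the groups overlapped. The groups did not overlap in 2 of them, in opposite directions. Over all probe sets 7.1% were lower and 5.23% higher without overlap, so nothing is read from that count. Krt19, a keratin of duct cells, differed by 0.38 (SE 0.12) and Sox9, a duct transcription factor, by -0.36 (SE 0.11), with limma adjusted p = 0.673 and 0.652. Krt7, a further duct keratin, differed by 0.25 (SE 0.16). Krt19 read below the 95th percentile of the olfactory receptor probe sets on every array. Krt7 did so on all but AAV-CREB-H-ΔTC replicate 3, while Sox9 read above it on every array. A change at such low signals can be understated, so the median of this list says little about duct cells. Of 10 hepatocyte markers, 5 were higher and 5 lower (median 0.01, range -0.21 to 0.12), and without the arrays with Y-linked signal 3 were higher and 7 lower (median -0.01). All 8 markers of Kupffer cells, the liver macrophages, had higher means in AAV-CREB-H-ΔTC livers (median 0.40, with 0 called and 0 without overlap), and 7 of the 8 did without the arrays with Y-linked signal. Their mean signal was 8.34 to 9.22 in AAV-CREB-H-ΔTC livers and 7.83 to 9.03 in AAV-GFP livers. Endothelial, stellate and lymphocyte lists had medians of 0.17, 0.11 and 0.21, with 0 called in each. That of the stellate list was 0.22 without the arrays with Y-linked signal and turned to -0.08 without AAV-CREB-H-ΔTC replicate 1. The part of cell composition in the difference of Asic5 was not tested.

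Genes with the pattern most like that of Asic5 over the 6 arrays were ranked by Pearson's r on log2 signal, among 17956 genes left after predicted genes and receptor and antigen receptor families were set aside. The highest r were those of AU015836 (0.993), Tmem25 (0.992) and Usp37, Rela and Ceacam10 (0.991 each). Their differences were much smaller than that of Asic5, at -0.23 (SE 0.09) for AU015836, -0.50 (SE 0.09) for Tmem25 and -0.39 (SE 0.09) for the ubiquitin protease gene Usp37. Rela, a subunit of NF-kappaB, differed by -0.17 (SE 0.09) and Ceacam10 by -0.35 (SE 0.09). The lowest r were those of Zpbp (-0.999), H2-K1 (-0.997) and Apoa4 (-0.995). AU015836 read below the median of the olfactory receptor probe sets on every array, and Ceacam10 and Zpbp below their 95th percentile. H2-K1, a class I antigen-presenting molecule, read 11.02, 11.04 and 11.03 in AAV-CREB-H-ΔTC livers and 10.45, 10.33 and 10.26 in AAV-GFP livers. All 6 points of such a correlation share the step between the groups, which Asic5 was selected on, so r describes that step and little else. Within the family, r with Asic5 was 0.866 for Asic1, -0.621 for Asic2, 0.082 for Asic3 and 0.022 for Asic4.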

How the data were processed

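Liver RNA of 6 mice was measured, with 1 array per mouse. The authors deposited 1 log2 signal for each probe set and array. Per the submitters' processing notes, their tool was Transcriptome Analysis Console; version, summarisation and between-array normalization were not given in the sources used here. That the scale is log2 was read from the range, 1.42 to 13.9. Symbols came from GEO's platform annotation: 23521 probe sets had 1 symbol, 1814 had several and 16010 were unlisted. A gene with several probe sets was read from the one with the highest mean.

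The comparison used limma 3.58.1 (lmFit, then eBayes; R 4.3.3) over all 41345 probe sets, two-sided, with Benjamini-Hochberg adjustment and calls at an adjusted p under 0.05. Standard errors (SE) are moderated. P-values set the difference between the groups against the spread between these mice, with a variance moderated over all probe sets. An exact permutation test of 3 against 3 arrays cannot go below 0.1, so none is given. On simulated data for this comparison (41345 probe sets, 50 changed per size), 0% of log2 changes of 0.5, 54% of those of 1 and 88% of those of 2 were called. Normal noise was used, and changes were placed only on probe sets with a mean signal above the median. The rates therefore do not describe dimmer probe sets, among them those of Asic1, Asic2 and Asic3. An adjusted p under the threshold is also reached more easily where more probe sets change. The simulation changed 50 per size, while 2 probe sets were called in the data, so the rates may be too high for this comparison.

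The members and lists were chosen with earlier results of these data known. Genes named are the members, every gene of lists of 5 or fewer, up to 3 per longer list with the lowest unadjusted p, the RefSeq neighbours (GRCm38.p6), and the 5 most and 3 least correlated with Asic5. S100a10, Hsd3b5, Elovl3 and the hepatocyte markers Alb, Ttr and Cps1 fall outside that rule and were chosen after their values were seen. Alternatives are given in the closing section. Figures were drawn with matplotlib 3.10.9.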

Additional observations from a re-analysis of the deposited data

Results flagged for a closer look

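In 2 genes the AAV-CREB-H-ΔTC livers stood on one side of the AAV-GFP livers on the 4 arrays that lack Y-linked signal and on the other on the 2 arrays that carry it. Asic4 differed by 0.168 between the arrays with Y-linked signal and by -0.11 among the others. Asic2 differed by -0.00099 between the arrays with Y-linked signal, which is close to no difference, and by 0.17 among the others. Asic3 also turned, at 0.15 on the arrays with Y-linked signal and -0.14 on the others, but its groups overlapped on those 4 arrays. None of these differences was tested, and 1 array stood on each side where Y-linked signal was present.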

How the results depend on the processing

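The log2 difference of Asic5 lay between -1.93 and -1.77 under all 16 planned settings, which were quantile normalization, median centring, 2 filters on dim probe sets, limma-trend (also robust), array weights, a replicate block, a term for Y-linked signal, the arrays without that signal, and each array left out (-1.93 to -1.78). Asic1 kept its sign (-0.38 to -0.22; -0.38 to -0.25 with 1 array left out), as did Asic2 (0.07 to 0.17, also with 1 array left out), and none of Asic1 to Asic4 was called under any setting. Asic3 ran from -0.15 to 0.094 and Asic4 from -0.10 to 0.044 with 1 array left out, so both turned sign. Between the 2 arrays with Y-linked signal, a comparison chosen after seeing the data, the differences were -0.47 for Asic1, -0.001 for Asic2, 0.15 for Asic3, 0.17 for Asic4 and -2.05 for Asic5. The 2 called probe sets of the array, Apoa4 and Asic5, became 1 (Apoa4) with the term for Y-linked signal, 0 on the arrays without it, and 0 to 2 with 1 array left out: 0 without any single array other than AAV-CREB-H-ΔTC replicate 2, and 2 without that one, Apoa4 and an unnamed probe set. Asic5 was called in none of the 6 fits with 1 array left out. Most of these fits use fewer arrays; the cause was not tested further. With the replicate block 0 were called and the difference of Asic5 was -1.86. Deviations of same-numbered mice correlated at 0.078, 0.127 and 0.33, and 2 of 3 AAV-CREB-H-ΔTC mice correlated best with another number. The margins of these 2 were small, at 0.121 against 0.078 and 0.159 against 0.127. The 0.33 is that of the 2 arrays with Y-linked signal. Whether the numbers pair the mice therefore cannot be told from these values. At an unadjusted p under 0.05, 1210 probe sets were higher and 1640 lower with limma. No value could be had for Asic1, Asic2 and Asic3 with the dimmest 50% left out, and none for a mean of probe sets, since each member has 1. Medians of the lists also moved with single arrays, that of the ENaC subunits to 0.03 without AAV-GFP replicate 1 and that of Kupffer cell markers to 0.17 without AAV-GFP replicate 3.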
